A study of Homo sapiens with 12 samples.

Results

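The mitochondrial ribosomal protein genes are the nuclear genes whose symbols begin with MRPL, for the large subunit, or MRPS, for the small subunit, followed by a digit. By that rule on the symbol, 78 of the 16384 genes in the count tables were members. They were measured in MDA-MB-231, an established triple-negative breast cancer cell line, by stranded poly(A) RNA sequencing, in 4 groups of 3 libraries. The CAR group received 10 µmol/L of CAR, which the series title gives as cardamonin, a plant chalcone. In the JQ1 group the dose was 25 µmol/L of JQ1, an inhibitor of BET bromodomain proteins, and the Combination group received both agents at these doses. The control group, titled CON, received DMSO, the vehicle. All groups carry the genotype label WT. How long the cells were treated is not in the labels, and every value comes from 1 cell line. The labels do not tell whether libraries of a group were separate cultures, and the p-values therefore reflect the spread among these libraries, possibly only technical.

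The mitochondrial ribosome translates the few proteins encoded by mitochondrial DNA, all of them subunits of the oxidative phosphorylation complexes. Its proteins are encoded in the nucleus, made on cytosolic ribosomes and imported, and they must be supplied together with ribosomal RNAs transcribed inside the organelle. Some have a counterpart in the bacterial ribosome, and others were added in the mitochondrial lineage. Promoters of nuclear genes for mitochondrial proteins are known for sites of NRF1 and of the ETS factor GABPA, and MYC, which binds the E-box, is known to raise ribosome-related genes. BET proteins bind acetylated chromatin and promote transcription elongation.

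By role the members comprised 30 large-subunit proteins with a bacterial counterpart, 21 mitochondria-specific large-subunit proteins, 16 small-subunit proteins with a bacterial counterpart and 10 mitochondria-specific small-subunit proteins. MRPS18A and MRPS30 were placed in the large subunit, where their proteins sit in spite of their symbols. MRPS36 was kept apart, because its protein is now known as a subunit of the 2-oxoglutarate dehydrogenase complex. Of the 78 members, 77 passed the filter on low counts. The exception, MRPS24 (chr7:43866558-43869893, minus strand), had 0 to 0.0987 CPM in the 12 libraries. In the annotation it lies within a read-through gene on the same strand, which is not analysed here.

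The promoters of a few members are shown because they hold strings that were searched for in all member promoters and because these genes answered the drugs differently. MRPS18A, MRPS18B and MRPS18C are 3 related copies of 1 bacterial protein, MRPL3 was among the members lowered most by JQ1, and MRPL40 was among those raised most by JQ1. The sequences are RefSeq windows on GRCh38.p14, from 250 bases before to 50 bases after the annotated start, and run 5′ to 3′ on the strand of the gene. Capitals mark CCGGAAG (ETS and GABPA), GCATGCGC (core of the NRF1 site) or CACGTG (E-box), on either strand. The windows are chr6:43687742-43688041 (minus) for MRPS18A, chr6:30617590-30617889 (plus) for MRPS18B, chr4:83455808-83456107 (plus) for MRPS18C, chr3:131502922-131503221 (minus) for MRPL3 and chr22:19432295-19432594 (plus) for MRPL40.
MRPS18A: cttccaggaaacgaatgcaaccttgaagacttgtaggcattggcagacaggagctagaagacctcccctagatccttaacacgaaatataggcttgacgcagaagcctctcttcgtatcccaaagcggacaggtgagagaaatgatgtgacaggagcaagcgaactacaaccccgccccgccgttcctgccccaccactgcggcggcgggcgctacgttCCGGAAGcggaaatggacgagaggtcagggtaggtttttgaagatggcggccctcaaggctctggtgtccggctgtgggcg
MRPS18B: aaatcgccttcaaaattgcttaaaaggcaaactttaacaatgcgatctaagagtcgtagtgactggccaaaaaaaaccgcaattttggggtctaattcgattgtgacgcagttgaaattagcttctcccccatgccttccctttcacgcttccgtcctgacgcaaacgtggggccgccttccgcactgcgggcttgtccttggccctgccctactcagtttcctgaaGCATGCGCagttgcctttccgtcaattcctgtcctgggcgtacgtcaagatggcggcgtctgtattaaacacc
MRPS18C: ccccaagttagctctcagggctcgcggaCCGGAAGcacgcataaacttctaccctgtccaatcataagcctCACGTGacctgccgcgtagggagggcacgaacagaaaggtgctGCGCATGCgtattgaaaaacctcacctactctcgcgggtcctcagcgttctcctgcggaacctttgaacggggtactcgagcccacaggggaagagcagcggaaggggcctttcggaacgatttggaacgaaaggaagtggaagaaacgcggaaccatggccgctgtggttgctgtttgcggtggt
MRPL3: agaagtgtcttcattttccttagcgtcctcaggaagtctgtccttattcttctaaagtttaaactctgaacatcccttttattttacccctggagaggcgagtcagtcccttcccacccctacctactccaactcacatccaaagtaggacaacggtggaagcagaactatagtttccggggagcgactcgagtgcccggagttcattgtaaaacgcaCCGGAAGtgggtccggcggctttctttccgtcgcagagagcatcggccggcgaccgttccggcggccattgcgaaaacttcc
MRPL40: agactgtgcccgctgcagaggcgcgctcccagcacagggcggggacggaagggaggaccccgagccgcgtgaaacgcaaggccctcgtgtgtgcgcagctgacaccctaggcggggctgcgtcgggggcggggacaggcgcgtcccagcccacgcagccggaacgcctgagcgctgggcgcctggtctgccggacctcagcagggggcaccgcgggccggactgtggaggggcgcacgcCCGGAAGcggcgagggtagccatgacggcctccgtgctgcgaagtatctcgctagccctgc

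CCGGAAG stood in the MRPS18A promoter 31 bases before the start, in the MRPL3 promoter 32 bases before it and in the MRPL40 promoter 11 bases before it. The MRPS18B promoter held the NRF1 core 23 bases before the start and neither of the other 2 strings. The MRPS18C promoter held all 3. Of the 78 members, 69 matched the promoter table, and CCGGAAG on either strand was found in 29 of them (42%). It was found in 19.4% of the 10253 promoters of genes tested here and in 10.7% of all 27305 promoters of the table. GCATGCGC was found in 6 member promoters (8.7%), against 5.46% of genes tested here and 3.27% of all promoters. CACGTG was found in 6 member promoters (8.7%), against 10.1% of genes tested here and 7.43% of all promoters. None of the 3 strings contains another, on either strand. By response, CCGGAAG was found in 14 of 43 promoters of members lower in JQ1 than in DMSO (32.6%) and in 8 of 15 promoters of members higher in JQ1 (53.3%). Among these promoters GCATGCGC was found in 5 of the 43 and 0 of the 15, and CACGTG likewise in 5 and 0. In CAR, GCATGCGC and CACGTG were each found in 6 of 48 promoters of members higher than in DMSO (12.5%) and in 0 of 20 promoters of members that were not called. GCATGCGC and CACGTG each stood in only 6 member promoters, so a 0 among 15 or 20 promoters says little. Shares among all genes with the same calls were not computed, and the splits by response were not tested. A match is a description of the letters and shows no binding.

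Levels are given as CPM, counts scaled to a common library total with TMM factors, so that they match the fold changes. In DMSO libraries the mean level of the members ran from 1.29 CPM (MRPS28) to 162 CPM (MRPS10), with a median of 38.9 CPM, and 75 of the 77 tested members averaged at least 5 CPM in every group. Per kilobase of annotated transcript, over all libraries, MRPL14 (89.7 CPM per kb), MRPL12 (86.0) and MRPS10 (85.5) were highest, and MRPS28, MRPL42 and MRPS11 were lowest. The annotated transcript of MRPL42 is 15582 bases long, which sets its place in that order. Members were shorter than most genes, with a median transcript of 1308 bases, against 3018 bases over all genes tested.

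Total counts ran from 17449715 to 19754456 per library. VIM had at least 8938 counts in every library, while ESR1, PGR and CDH1 had at most 13, and ERBB2 had 99.0 to 151 CPM without TMM scaling, which is the pattern known for this line. A pair of libraries stood apart. In DMSO replicate 3 the deviation of genes from the other DMSO libraries fell with transcript length (rho -0.741 by Spearman's rank correlation over 6151 genes), while in the 9 libraries with a drug rho lay between -0.268 and 0.245. The other DMSO libraries had rho of 0.611 and 0.653, each set against a mean that includes replicate 3. The members had a median deviation of 0.18 on the log2 scale in that library. It was the highest of the DMSO libraries for 73 of 77 members (94.8%), against 40.7% of all genes tested. Combination replicate 1 held 1429 counts of ALB, the liver gene for serum albumin, against 4 to 10 in the other 11 libraries. The 10 liver markers summed to 134 CPM there and to 1.34 to 3.52 CPM elsewhere. Counts of members called, and counts of the pathway lists against DMSO, are also given without DMSO replicate 3, and counts of members called in Combination are given without its replicate 1. Levels, ratios and the counts of groups that do not overlap use all libraries. The part that these features have in the results was not tested beyond that.

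Summed over all members, the level was 4550, 4640 and 4570 CPM in CAR, 3140, 3070 and 3130 CPM in JQ1, 3360, 3390 and 3360 CPM in Combination, and 3580, 3580 and 4020 CPM in DMSO. The CAR libraries were the highest and the JQ1 libraries the lowest, with no overlap with any other group. The means were 4590 ± 43.3 CPM in CAR, 3110 ± 37.7 CPM in JQ1, 3370 ± 15.2 CPM in Combination and 3730 ± 251 CPM in DMSO (SD, n = 3 each). CAR was the group with the highest mean for 55 of 77 members (71.4%), against 28.4% of all genes tested. JQ1 was the group with the lowest mean for 43 of 77 (55.8%), against 23.3% of all genes tested. A summed CPM shows only the share of the measured mRNA, and gives neither the number of cells nor the amount of RNA per cell.

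**Figure D1:**
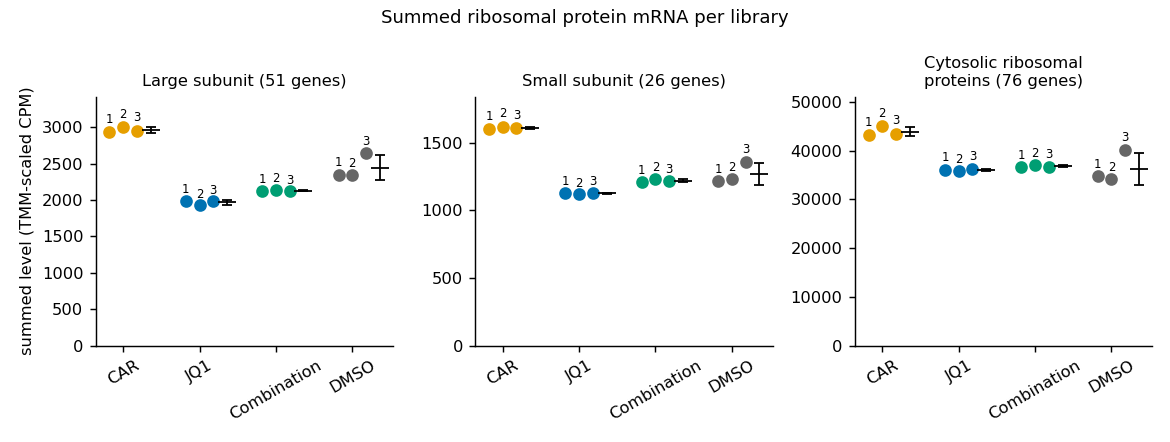
Summed TMM-scaled CPM of the large-subunit members, the small-subunit members and the cytosolic ribosomal protein genes in each library, with CAR, JQ1, Combination and DMSO from left to right. Points are libraries labelled by replicate, and bars are the mean and SD of 3. Both subunits are highest in CAR and lowest in JQ1, and DMSO replicate 3 lies above the other DMSO libraries in all panels.

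The subunits differed slightly in how far they shifted. The ratio of large-subunit to small-subunit summed counts was 1.83 to 1.85 in CAR, 1.72 to 1.76 in JQ1, 1.74 to 1.76 in Combination and 1.91 to 1.93 in DMSO. All 9 drug-treated libraries lay below the 3 DMSO libraries. The ratio of cytosolic to mitochondrial ribosomal protein summed counts was 9.49 to 9.71 in CAR, 11.5 to 11.7 in JQ1 and 10.9 in each Combination library, against 9.52 to 9.98 in DMSO. JQ1 and Combination lay above DMSO with no overlap, while CAR overlapped DMSO.

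CAR against DMSO asks what cardamonin alone did to this gene family. The members rose as a broad and shallow shift: 54 of 77 were called higher and 0 lower, with 23 not called, at an adjusted p under 0.05 by the quasi-likelihood test of edgeR, with p-values adjusted by Benjamini and Hochberg's method over 12645 genes. Over all genes tested, 57.3% were called, 27.3% higher and 30.1% lower. The median log2 change was 0.28 for members and -0.02 for all genes tested. Of the 77 members, 2 were called with a rise of at least 1.5-fold, against 471 of the 12645 genes tested. At an unadjusted p under 0.05, edgeR gave 0 members lower, and DESeq2 called 0 lower. By role, 23 of 30 large-subunit proteins with a bacterial counterpart were called higher, as were 12 of 21 mitochondria-specific large-subunit proteins, 11 of 15 small-subunit proteins with a bacterial counterpart and 8 of 10 mitochondria-specific small-subunit proteins. The libraries of the 2 groups did not overlap for 54 of 77 members (70.1%), against 59.9% of all genes tested. Without DMSO replicate 3, 29.3% of all genes were called higher and 32.2% lower. Among members 65 were then called higher and 1 lower, and the median was 0.36. By role, in the same order, 27, 17, 11 and 10 were then called higher. With a correction for transcript length and GC content 53 members were higher and 2 lower, against 33% higher and 28.8% lower over all genes. Scaling by total counts moved the median of all genes to -0.09 and the split over all genes to 20.8% higher and 37.5% lower, and gave 51 members higher and 1 lower.

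MRPS25 (chr3:15042460-15065335, minus strand), a mitochondria-specific protein of the small subunit, rose most. It had 42.3, 40.1 and 38.1 CPM in CAR libraries, against 24.1, 25.4 and 25.0 CPM in DMSO libraries. Every CAR library lay above every DMSO library, and the log2 change was 0.70 ± 0.06 (SE; edgeR adjusted p = 1.61e-09). MRPL12 (chr17:81703357-81707526, plus strand) encodes the stalk protein that in bacteria recruits translation factors. It had 118, 122 and 116 CPM in CAR, against 69.7, 71.0 and 88.0 CPM in DMSO, a log2 change of 0.64 ± 0.06 (edgeR adjusted p = 7.83e-08). DMSO replicate 3 was the highest of its group but still below every CAR library.

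MRPL24, the counterpart of a bacterial protein that starts assembly of the large subunit, had 124, 128 and 120 CPM in CAR, against 77.8, 80.1 and 92.7 CPM in DMSO. Its log2 change was 0.57 ± 0.06. MRPS15, a small-subunit protein that in bacteria binds the ribosomal RNA early in assembly, had 67.1, 69.4 and 69.6 CPM in CAR, against 43.1, 44.1 and 53.9 CPM in DMSO. Its log2 change was 0.55 ± 0.08. MRPL21 and MRPS27, a pentatricopeptide repeat protein, each rose by 0.52 on the log2 scale. These 6 were chosen among called members whose libraries did not overlap between the groups, and the same rule served the group comparisons below. Each of the 6 stayed called under every alternative tried, at log2 changes between 0.44 and 0.76. MRPL14 was among the members not called, with 97.9, 98.3 and 101 CPM in CAR, against 93.4, 90.4 and 106 CPM in DMSO. CAR lay inside the range of DMSO, and the test did not call it (log2 0.03 ± 0.05, edgeR adjusted p = 0.613).

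JQ1 against DMSO asks what JQ1 alone did at this dose. It shares the DMSO libraries with the comparison above, so the values of both are only set side by side. Here the members moved in both directions with a majority down: 47 of 77 were called lower and 17 higher, with 13 not called, against 42.2% lower and 41.5% higher over all genes tested (83.7% called in all). As a share, 61% of members were lower. The median log2 change was -0.22 for members and -0.01 for all genes. Of the 77 members, 6 fell and 1 rose by at least 2-fold. Among all 12645 genes tested, 2303 called genes fell and 1485 rose that far. The libraries of the 2 groups did not overlap for 58 of 77 members (75.3%), against 83.2% of all genes. Without DMSO replicate 3, 42 were lower and 19 higher, with a median of -0.17, against 42.2% lower and 42% higher over all genes. With the length and GC correction the split was 33 lower and 22 higher, with a median of -0.09 for members and 0.10 for all genes, and 38% lower and 47.4% higher over all genes. With total count scaling it was 54 lower and 14 higher, against 47.8% lower and 36.1% higher over all genes, whose median moved to -0.13.

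The decrease was deepest among large-subunit proteins with a bacterial counterpart: 21 of 30 were called lower and 5 higher, with a median log2 change of -0.41, and 5 of the 6 members that fell at least 2-fold were among them. Among all genes tested, 42.2% were called lower and 41.5% higher. Of the mitochondria-specific large-subunit proteins 10 of 21 were lower (47.6%, near that share) and 6 higher (median -0.14). Of the small-subunit proteins with a bacterial counterpart 10 of 15 were lower and 3 higher (median -0.19), and of the mitochondria-specific ones 6 of 10 were lower and 2 higher (median -0.22). Without DMSO replicate 3 the counts in the same order were 20 lower and 5 higher, 10 lower and 7 higher, 6 lower and 4 higher, and 6 lower and 2 higher. Of all genes, 42.2% were then lower and 42% higher. Differences between these classes were not tested.

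**Figure D2:**
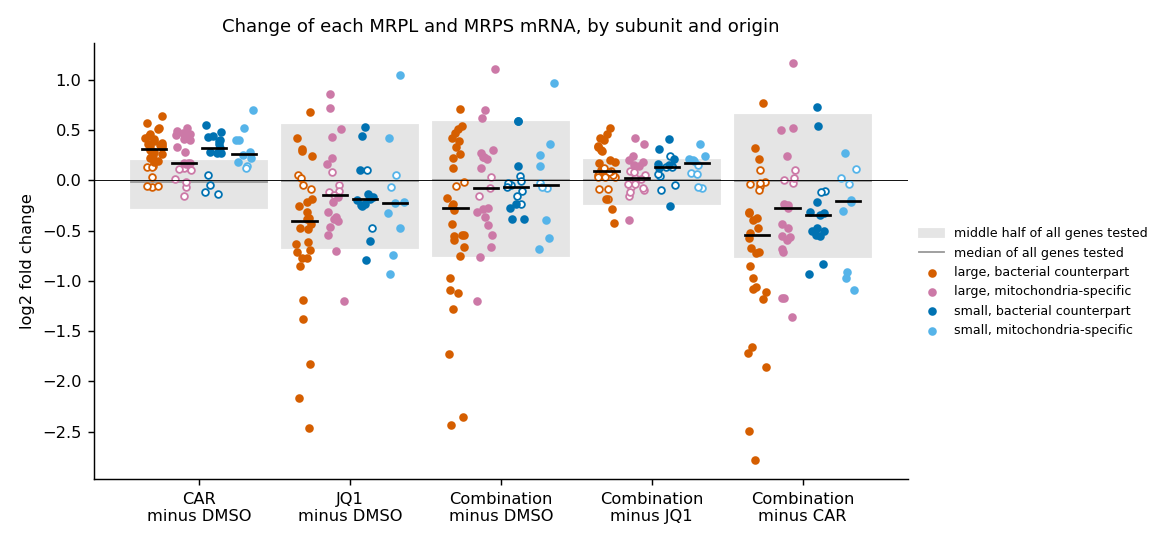
Log2 fold change of 76 members in 5 comparisons, split by subunit and by whether the protein has a bacterial counterpart (MRPS36, of neither subunit, is left out). Filled points were called at adjusted p under 0.05 and open points were not, black bars are class medians, and grey boxes and lines are the quartiles and median of all genes tested. The class medians of CAR minus DMSO lie above the median of all genes, and the lowest points in the comparisons with JQ1 are large-subunit proteins with a bacterial counterpart.

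MRPL15, a large-subunit protein with a bacterial counterpart, fell most. It had 7.68, 6.30 and 7.16 CPM in JQ1 libraries, against 35.7, 39.5 and 41.6 CPM in DMSO libraries. The groups were far apart, and the fall was 5.52-fold (log2 -2.46 ± 0.08, edgeR adjusted p = 2.38e-17). MRPL23 (chr11:1947278-1984522, plus strand), whose bacterial counterpart lines the exit of the peptide tunnel, had 3.20, 3.09 and 3.09 CPM in JQ1, against 12.3, 11.4 and 18.3 CPM in DMSO. The DMSO libraries differed among themselves more than for MRPL15, with replicate 3 highest. The fall was 4.49-fold (log2 -2.17 ± 0.16, edgeR adjusted p = 3.4e-10).

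MRPL11 (chr11:66435075-66466738, minus strand), at the base of the stalk, had 27.5, 24.7 and 25.4 CPM in JQ1, against 84.1, 86.0 and 105 CPM in DMSO, a fall of 3.54-fold. Its exons overlap those of PELI3 on the other strand, which rose by 0.95 on the log2 scale in JQ1. MRPL24, among the members raised most by CAR, had 32.1, 29.4 and 35.1 CPM in JQ1, against 77.8, 80.1 and 92.7 CPM in DMSO, a fall of 2.6-fold. MRPL39, a mitochondria-specific protein, had 11.6, 11.1 and 11.6 CPM in JQ1, against 26.3, 23.6 and 28.6 CPM in DMSO, a fall of 2.29-fold. MRPL3, which in bacteria lies beside the peptidyl transferase centre, had 39.3, 39.8 and 37.2 CPM in JQ1, against 85.6, 88.9 and 91.3 CPM in DMSO, a fall of 2.28-fold. Every JQ1 library lay below every DMSO library for these 4 genes, as the rule for naming them required.

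The members that rose in JQ1 were led by MRPS25, which CAR also raised. It had 48.7, 52.0 and 53.2 CPM in JQ1, against 24.1, 25.4 and 25.0 CPM in DMSO, a rise of 2.07-fold (log2 1.05 ± 0.06, edgeR adjusted p = 1.09e-13). Its exons overlap those of NR2C2 on the other strand, which averaged 109 CPM in JQ1, against 94.6 CPM in DMSO. MRPL41 (chr9:137551199-137552555, plus strand), a mitochondria-specific large-subunit protein also reported to bind BCL2, had 72, 70.2 and 74.2 CPM in JQ1, against 39.0, 36.8 and 43.5 CPM in DMSO. The groups did not overlap, and the rise was 1.81-fold (log2 0.86 ± 0.05, edgeR adjusted p = 1.79e-12).

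MRPL40, which lies in the region deleted in the 22q11 syndrome, had 24.1, 23.9 and 26.8 CPM in JQ1, against 14.2, 14.5 and 16.6 CPM in DMSO, a log2 change of 0.72 ± 0.07. MRPL55 had 26.5, 25.9 and 29.8 CPM in JQ1, against 17.8, 15.7 and 17.8 CPM in DMSO, a log2 change of 0.68 ± 0.07. MRPS6 rose by 0.53 and MRPL53 by 0.51 on the log2 scale, and both share exon sequence on the same strand with a neighbour, SLC5A3 for MRPS6 and CCDC142 for MRPL53. SLC5A3 averaged 200 CPM in JQ1, against 88.5 CPM in DMSO, and how the counting treated the shared exons is not stated.

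**Figure D3:**
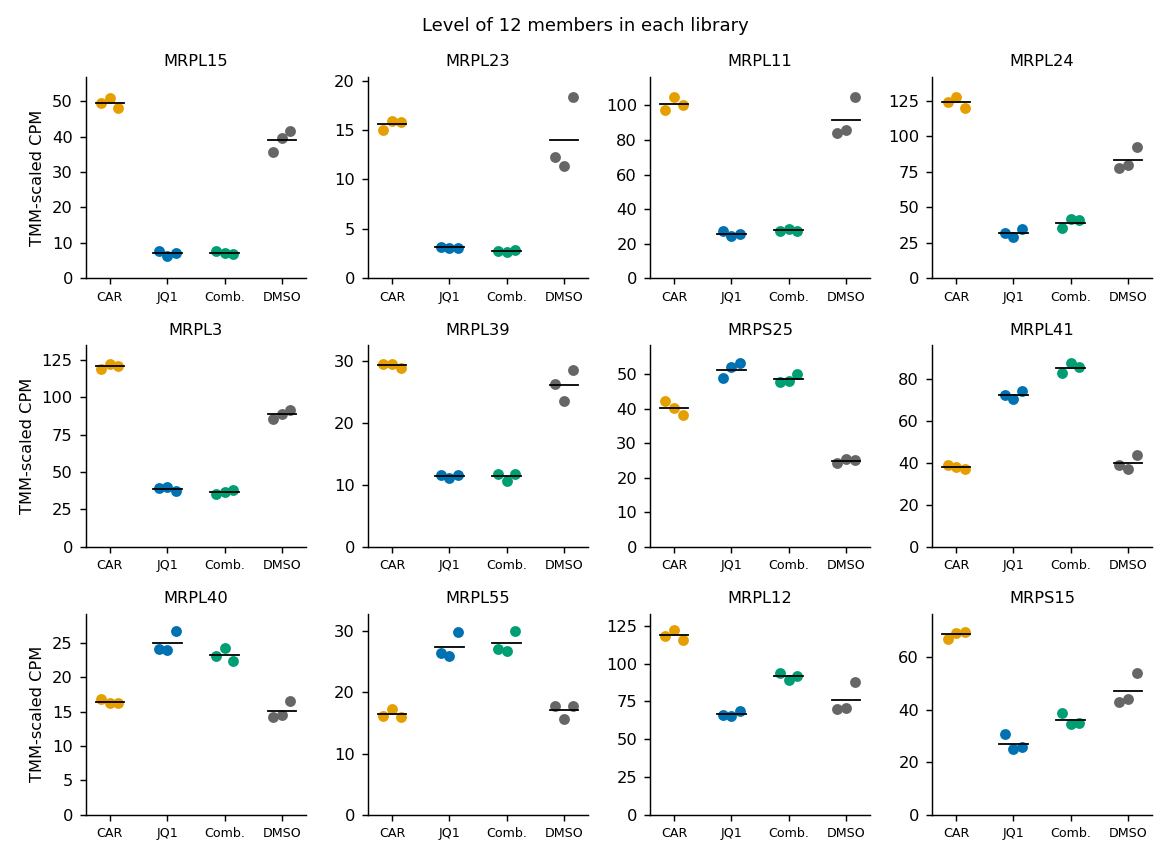
TMM-scaled CPM of 12 members in each library, with CAR, JQ1, Combination and DMSO from left to right in each panel. Points are libraries and lines are group means. MRPL15, MRPL23, MRPL11, MRPL24, MRPL3 and MRPL39 are low in JQ1 and Combination, MRPS25, MRPL41, MRPL40 and MRPL55 are high in both, and MRPL12 and MRPS15 are highest in CAR.

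The 3 related MRPS18 copies all rose in CAR and had different calls in JQ1. MRPS18A, of the large subunit, had 52.6, 53.8 and 51.3 CPM in CAR, 41.1, 39.2 and 41.1 CPM in JQ1, 45.6, 44.6 and 43.8 CPM in Combination, and 36.4, 37.5 and 40.5 CPM in DMSO. MRPS18B, a mitochondria-specific small-subunit protein, had 134, 138 and 134 CPM in CAR, 51.3, 56 and 54.3 CPM in JQ1, 63.6, 73.4 and 70.2 CPM in Combination, and 97.1, 97.0 and 114 CPM in DMSO. MRPS18C, the copy that takes the place of the bacterial protein in the small subunit, had 31.5, 32.6 and 31.4 CPM in CAR, 21.2, 19.4 and 20.6 CPM in JQ1, 23, 21.1 and 23 CPM in Combination, and 22.4, 21 and 24.9 CPM in DMSO. In CAR the log2 changes were 0.46 ± 0.05, 0.40 ± 0.06 and 0.48 ± 0.07 for MRPS18A, MRPS18B and MRPS18C, and all 3 were called higher. In JQ1, MRPS18B fell by 0.93 on the log2 scale (edgeR adjusted p = 1.6e-11). MRPS18C was called lower at -0.16 ± 0.07 (edgeR adjusted p = 0.0359), which turned to 0.01 with the length and GC correction. MRPS18A was not called at 0.08 ± 0.05 (edgeR adjusted p = 0.14), and turned to -0.04 with total count scaling. The differences between the copies were not tested.

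MRPS36, the member that is no part of the mitochondrial ribosome, was not called in CAR. It had 18.4, 15.4 and 16.9 CPM in CAR, 23.5, 21.9 and 21.5 CPM in JQ1, 26.8, 22.2 and 25.6 CPM in Combination, and 15.7, 17.6 and 19.0 CPM in DMSO. CAR overlapped DMSO and was not called (log2 -0.05 ± 0.09, edgeR adjusted p = 0.682, with the sign turned to 0.03 without DMSO replicate 3), while JQ1 was higher (0.36 ± 0.08, edgeR adjusted p = 0.000524), as was Combination (0.51 ± 0.08, edgeR adjusted p = 7.59e-06).

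Combination against DMSO gave a split near even, with 34 members called lower and 27 higher and 16 not called. Over all genes tested 85.4% were called, 42.8% lower and 42.6% higher. The median was -0.08 for members. The split depended on scaling: with total counts, which moved the median of all genes to -0.21 and their split to 51.4% lower and 33.3% higher, 48 members were lower and 14 higher. Without DMSO replicate 3 and Combination replicate 1, 32 were lower and 29 higher, against 42.4% lower and 42.2% higher over all genes. With the length and GC correction 30 were lower and 30 higher, against 38.1% lower and 48.8% higher over all genes. MRPL15 had 7.74, 7.21 and 6.73 CPM in Combination, 5.38-fold below DMSO, and MRPL23 had 2.72, 2.67 and 2.87 CPM, 5.1-fold below. MRPL19 (chr2:75646783-75690851, plus strand) was lower in Combination than in JQ1 as well. It had 30.5, 32.2 and 31.4 CPM in Combination, 43.2, 43.5 and 39.5 CPM in JQ1 and 70.5, 72.6 and 61.8 CPM in DMSO, and was 2.17-fold lower in Combination than in DMSO. MRPL41 had 82.8, 87.3 and 85.7 CPM in Combination, 2.14-fold above DMSO. MRPS14, a small-subunit protein, had 38.3, 41.2 and 38.6 CPM in Combination, against 26.1, 23.5 and 28.6 CPM in DMSO, a log2 change of 0.59 ± 0.07. Libraries did not overlap for 60 of 77 members (77.9%), against 84.8% of all genes.

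Combination against JQ1 asks what CAR added in the presence of JQ1. Of the members, 29 were called higher and 5 lower, with 43 not called, against 26% higher and 25.9% lower over all genes tested (51.9% called). The median log2 change was 0.09 and no member reached 1.5-fold. Of the 12645 genes tested, 512 were called higher and 884 lower by at least 1.5-fold. The split rested on the scaling, since total counts gave 16 higher and 15 lower, with 17.6% higher and 36% lower over all genes. Without Combination replicate 1, 24 were higher and 4 lower, against 23.2% higher and 23% lower over all genes. With the length and GC correction 31 were higher and 10 lower, against 31% higher and 26% lower over all genes. MRPL36, a small zinc-binding protein of the large subunit, had 34.2, 35.8 and 34 CPM in Combination, against 23.4, 24.7 and 24.7 CPM in JQ1, and rose most (0.52 ± 0.06, edgeR adjusted p = 4.15e-07). MRPL12 had 93.7, 89.0 and 92.1 CPM in Combination, against 66.1, 65.6 and 69 CPM in JQ1 (0.45 ± 0.07, edgeR adjusted p = 1.21e-05). MRPL38, MRPL4, MRPS15 and MRPL21 rose by 0.40 to 0.42 on the log2 scale. The 5 that fell were MRPL19 (by 0.43), MRPL44, a protein with a ribonuclease III-like fold (by 0.40), MRPL16 (by 0.29), MRPS21 (by 0.26) and MRPL13 (by 0.19). MRPS21 lost its call without JQ1 replicate 2 or without Combination replicate 1, and MRPL13 without Combination replicate 3. Libraries did not overlap for 41 of 77 members (53.2%), against 62.3% of all genes.

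Combination against CAR asks what JQ1 added in the presence of CAR. Of the members, 51 were called lower and 11 higher, with 15 not called, against 43% lower and 42.4% higher over all genes (85.4% called). The median log2 change was -0.38, and 13 of the 77 members fell at least 2-fold, against 2518 of the 12645 genes tested. MRPL15 was 6.85-fold lower and MRPL23 5.64-fold lower in Combination than in CAR. MRPL3 had 35.4, 36.5 and 37.8 CPM in Combination, against 119, 122 and 121 CPM in CAR, a fall of 3.29-fold. MRPL41 had 82.8, 87.3 and 85.7 CPM in Combination, against 38.7, 38.1 and 37.0 CPM in CAR, a rise of 2.25-fold. MRPL55, MRPS6, MRPS36, MRPS14 and MRPL53 rose by 0.52 to 0.76 on the log2 scale. The calls of members were 51 lower and 11 higher whichever 1 of the 6 libraries of these groups was left out. Over all genes 41.8% to 42% were then lower and 41.2% to 41.4% higher. With the length and GC correction 48 were lower and 18 higher, against 39.5% lower and 47.4% higher over all genes. Libraries did not overlap for 63 of 77 members (81.8%), against 87.4% of all genes.

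The effect of each agent can be read in 2 comparisons that share no library. Across the 77 members, the JQ1 effect with CAR (Combination minus CAR) had a Pearson correlation of 0.953 and a Spearman correlation of 0.928 with the JQ1 effect without CAR. Over all 12645 genes these were 0.932 and 0.933. The CAR effect with JQ1 (Combination minus JQ1) had correlations of 0.4 and 0.346 with the CAR effect without JQ1, and 0.431 and 0.45 over all genes. These are descriptions across genes, which are not independent replicates. For CAR, 25 members (32.5%) were called higher in both comparisons, 0 lower in both and 1 in opposite directions. Over all genes, 13.8% were higher in both, 14.8% lower in both and 5.27% opposite. For JQ1, 47 members (61%) were lower in both, 11 (14.3%) higher in both and 1 opposite, against 37.6% lower in both, 37.1% higher in both and 1.7% opposite over all genes.

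**Figure D4:**
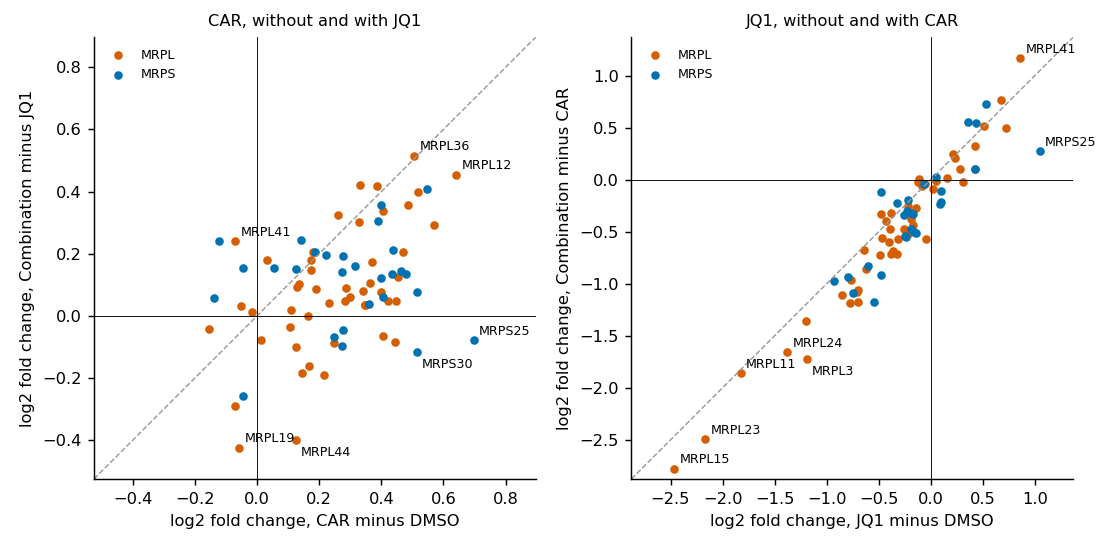
Log2 fold change of each of the 77 members for CAR (left) and JQ1 (right), without the other agent on the horizontal axis and with it on the vertical axis. Points are genes, colours mark MRPL and MRPS symbols, and the dashed line marks equal effects. In both panels 59 of 77 members lie below the line, since the vertical distance from it, the interaction, is the same for a gene in both. MRPL15 and MRPL23 are lowest for JQ1.

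The interaction, which is the CAR effect with JQ1 minus the CAR effect without JQ1, tests that difference. It was called lower for 33 members and higher for 1, with 43 not called, against 18.2% lower and 20.1% higher over all genes tested (38.3% called). The median was -0.19 for members and 0.01 for all genes. Without DMSO replicate 1, 22 were lower and 1 higher, against 16.6% and 18.9% over all genes, and the median of members was -0.14. Without DMSO replicate 2, 25 were lower and 3 higher, against 18.2% and 19.7% over all genes. Without DMSO replicate 3, 45 were lower and 1 higher, against 22.3% and 23.8% over all genes. Without that library and Combination replicate 1, 44 were lower and 1 higher, against 20.9% and 22.7%. MRPS25 had the largest value, at -0.78 ± 0.08 (edgeR adjusted p = 1.58e-07). Its level was 47.6, 48 and 50.1 CPM in Combination, against 48.7, 52.0 and 53.2 CPM in JQ1, and these groups overlapped. MRPS30, MRPL3, MRPL44, MRPL37 and MRPS27 followed, at -0.63, -0.53, -0.52, -0.47 and -0.44. MRPS30 had 47.4, 46.3 and 46.2 CPM in CAR, against 31.7, 32.5 and 33.8 CPM in DMSO. With JQ1 present it had 20, 20.7 and 21.3 CPM in Combination, against 23.9, 22.2 and 21 CPM in JQ1, which overlapped. MRPL41 was the member called higher, at 0.31 ± 0.08 (edgeR adjusted p = 0.00291), a call that was lost with the length and GC correction.

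Exons of 27 tested members overlap those of another gene, on the other strand for most. For these 27, 20 were called higher in CAR than DMSO (74.1%), as were 34 of the 50 without such overlap (68%). The share over all genes tested was 27.3%. In JQ1 against DMSO, 20 of the 27 were lower (74.1%) and 5 higher, and 27 of the 50 were lower (54%) and 12 higher. Among all genes tested, 42.2% were lower and 41.5% higher. The strand setting of the counting is unknown here, and reads of overlapping neighbours cannot be told apart. Members with transcripts under 1000 bases were called higher in CAR in 9 of 16 cases (56.2%), and longer members in 45 of 61 (73.8%). In JQ1, 6 of the 16 were lower (37.5%) and 5 higher, and 41 of the 61 were lower (67.2%) and 12 higher. Across the 77 members, transcript length and the JQ1 change had a Spearman correlation of 0.08. The split by length was not tested.

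The other genes of the mitochondrial translation pathway were read from lists beside the members. Of all genes tested, 27.3% were called higher and 30.1% lower in CAR, and 41.5% higher and 42.2% lower in JQ1. Without DMSO replicate 3 these shares were 29.3% and 32.2% in CAR, and 42% and 42.2% in JQ1. Of the 5 mitochondrial ribosomal proteins with other symbols, 3 were higher in CAR than DMSO and 2 were not called, with DAP3, a GTP-binding small-subunit protein, at 173, 174 and 174 CPM in CAR, against 119, 119 and 131 CPM in DMSO. In JQ1, 1 of the 5 was higher (PTCD3, 0.77) and 2 lower (GADD45GIP1, -0.78, and CHCHD1, -0.20). With DMSO replicate 3 left out, 4 of the 5 were higher in CAR, and in JQ1 2 were higher and 1 lower. Of 29 assembly and rRNA modification factors, 21 were higher in CAR and 8 not called, led by C1QBP (0.67) and NSUN4 (0.59). In JQ1, 10 of the 29 were higher (34.5%) and 12 lower (41.4%), neither above the share over all genes. The rRNA methyltransferase MRM1 stood at -1.58 and MPV17L2 at 1.10. With that library left out, 21 were higher in CAR, and in JQ1 10 were higher and 13 lower. Of 15 translation factors, 8 were higher in CAR and 7 not called, among them the initiation factor MTIF2 (0.47), the recycling factor MRRF (0.53) and the elongation factor TUFM (0.40). In JQ1 6 were higher (40%) and 7 lower (46.7%), near the shares over all genes. The release factor relative MTRFR stood at -1.24 and the formyltransferase MTFMT at 1.04. When DMSO replicate 3 was left out, 10 translation factors were higher in CAR, and in JQ1 6 were higher and 7 lower.

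For the lists that follow, the shares over all genes were again 27.3% higher and 30.1% lower in CAR, and 41.5% and 42.2% in JQ1. Without DMSO replicate 3 they were 29.3% and 32.2% in CAR, and 42% and 42.2% in JQ1. Of 22 genes of mitochondrial transcription and RNA processing, 14 were higher and 2 lower in CAR. The mitochondrial RNA polymerase POLRMT stood at 0.46 and PNPT1, a polynucleotide phosphorylase, at 0.62. In JQ1 2 were higher (9.09%) and 14 lower (63.6%), with PRORP, the nuclease of mitochondrial RNase P, at -2.09 and PNPT1 at -1.01. With DMSO replicate 3 left out, 15 were higher and 2 lower in CAR, and in JQ1 4 were higher and 15 lower. Of 9 regulators of mitochondrial biogenesis, 7 were higher in CAR and 2 not called, and in JQ1 3 were higher and 3 lower. Leaving out DMSO replicate 3 gave 7 higher in CAR, and 3 higher and 4 lower in JQ1. The coactivator PPRC1 had 160, 152 and 159 CPM in CAR, 33.5, 32.5 and 36 CPM in JQ1, 48.5, 50.9 and 49.4 CPM in Combination, and 89.1, 93.8 and 83.3 CPM in DMSO. MYC had 167, 168 and 164 CPM in CAR, 125, 125 and 129 CPM in JQ1, 152, 162 and 157 CPM in Combination, and 122, 122 and 122 CPM in DMSO, and was not called in JQ1 against DMSO (edgeR adjusted p = 0.198). GABPA was not called in CAR (-0.06, edgeR adjusted p = 0.473) and rose in JQ1 (0.67). GABPB1, of the same list, went the other way in JQ1, with a mean of 17.8 CPM against 31.6 CPM in DMSO. NRF1 averaged 27.7 CPM in CAR and 19.9 CPM in JQ1, against 21.3 CPM in DMSO. Of 18 import and proteostasis genes, 13 were higher and 1 lower in CAR, with the chaperones HSPD1 (0.69) and HSPA9 (0.68) in front. In JQ1 6 were higher and 11 lower, with the protease subunit CLPP at -1.92. Leaving out DMSO replicate 3 gave 15 higher and 0 lower in CAR, and the same counts in JQ1. Cytosolic ribosomal protein genes, by way of comparison, were higher in CAR for 69 of 75, with 6 not called, and in JQ1 were higher for 19 and lower for 28. Leaving out DMSO replicate 3 gave 74 higher in CAR, and 38 higher and 25 lower in JQ1.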

How the data were processed

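RNA was sequenced from 12 MDA-MB-231 libraries after a stranded mRNA preparation, per the labels' protocols. The authors deposited 1 table of raw read counts per gene symbol for each library. Trimmomatic, HISAT2, HTSeq and the build hg38 are named per the submitters' processing notes, without roles or versions. The annotation and strand setting were not given in the sources used here. The tests used edgeR 4.0.16 under R 4.3.3: filterByExpr (minimum count 10, minimum total 15) kept 12645 of 16384 genes, TMM scaled the libraries, and 1 robust quasi-likelihood model with 1 coefficient per group was fitted to all 12 libraries (8 residual degrees of freedom). In all, 6 contrasts were tested with Benjamini-Hochberg adjustment over all genes tested, called at 0.05. DESeq2 1.42.0, other scalings, no filter, a length and GC correction (mgcv 1.9.3), fits to the compared groups, a replicate block and left-out libraries were alternatives. Same-numbered libraries did not deviate together (correlations -0.045 to 0.0564 over 15 pairs). The edgeR steps were tested on simulated counts for CAR against DMSO only, without a length trend or foreign RNA. The other contrasts and the alternatives were not simulated. The members and lists were chosen with earlier results of these data known. Named members were the 6 largest and 6 smallest called changes per contrast with a mean of 5 CPM or more in the higher group and no overlap of libraries (for the interaction, without the last condition), the 3 highest and 3 lowest per kilobase, and MRPS18A, MRPS18B, MRPS18C, MRPL12 and MRPS36. Examples from other lists were taken among those with small adjusted p or against the majority, and some, such as POLRMT and MYC, were chosen after their values were seen. Gene positions are from GENCODE v29 on GRCh38, matched by symbol for 98.9% of genes. Promoters are from RefSeq, and the members without an entry were MRPL10, MRPL13, MRPL15, MRPL2, MRPL21, MRPL23, MRPL35, MRPS28 and MRPS36. Depth of 17449715 to 19754456 counts limits precision for members near 1 CPM such as MRPS28.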

Additional observations from a re-analysis of the deposited data

Results flagged for a closer look

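For 7 members the CAR effect with JQ1 present differed from the CAR effect without it by the interaction test (edgeR, adjusted p between 0.00291 for MRPL41 and 1.58e-07 for MRPS25). MRPL41 differed by 0.31 on the log2 scale, with an effect of 0.24 with JQ1 and -0.07 without. MRPS25 differed by -0.78, with -0.08 with JQ1 and 0.70 without. MRPS30 differed by -0.63, with -0.12 with JQ1 and 0.51 without. MRPL3 differed by -0.53, with -0.09 with JQ1 and 0.44 without. MRPL44 differed by -0.52, with -0.40 with JQ1 and 0.12 without. MRPL37 differed by -0.47, with -0.06 with JQ1 and 0.41 without. MRPS27 differed by -0.44, with 0.08 with JQ1 and 0.52 without. These are the members with the largest called interaction values in each direction, and 27 further members were called lower.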

How the results depend on the processing

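Directions and calls of most results held under the alternatives, and the cause was not tested where they did not. With total count scaling, members were called higher and lower 16 and 15 times in Combination against JQ1, 14 were higher in Combination against DMSO, and 1 was lower in CAR against DMSO (also 1 without DMSO replicate 3). That scaling kept 21 of the 34 calls of members in Combination against JQ1 and 48 of the 61 in Combination against DMSO. With the length and GC correction, with or without the replicate block, 2 members were lower in CAR, 10 lower in Combination against JQ1, 18 higher in Combination against CAR, and 3 higher in the interaction. In JQ1 against DMSO the correction without the block gave 33 lower and 22 higher, and kept 49 of the 64 calls. Leaving out 1 library gave 50 to 65 members higher and 0 to 1 lower in CAR against DMSO, 16 to 19 higher and 42 to 50 lower in JQ1 against DMSO, 22 to 27 higher and 33 to 37 lower in Combination against DMSO, 21 to 27 higher and 4 to 5 lower in Combination against JQ1, 11 higher and 51 lower in Combination against CAR, and 1 to 3 higher and 22 to 45 lower in the interaction. Over all genes, calls against DMSO ran from 6521 to 7827 for CAR, 10320 to 10722 for JQ1 and 10546 to 10914 for Combination, and calls of Combination ran from 5806 to 6064 against JQ1, 10584 to 10620 against CAR, and 4256 to 5864 in the interaction. Each library left out belonged to the groups of its contrast. Signs turned for small values. In CAR against DMSO, MRPS36 ran from -0.117 to 0.025 over left-out libraries, above 0 without DMSO replicate 3 (0.025) or CAR replicate 2 (0.019). In JQ1 against DMSO, MRPL42 was -0.018 with the length and GC correction and -0.016 with the block added, MRPS18C was 0.012 and 0.014, and total count scaling gave -0.017 for MRPS10 and -0.035 for MRPS18A. In Combination against DMSO, total count scaling gave -0.082 for MRPL42 and -0.065 for MRPS10, and MRPS18C was 0.203 with the length and GC correction, 0.205 with the block added, -0.084 to 0.047 over left-out libraries, above 0 without DMSO replicate 3 (0.047) or Combination replicate 2 (0.014), and 0.020 without DMSO replicate 3 and Combination replicate 1, an alternative chosen after seeing the data, as was total count scaling without DMSO replicate 3. In Combination against CAR, MRPS10 was 0.039 with the length and GC correction, alone or with the block, and in the interaction MRPS18B ran from -0.126 to 0.013, above 0 without DMSO replicate 1 or Combination replicate 1. With the replicate block alone, 54 members were higher in CAR, 47 lower in JQ1 and 34 lower in Combination against DMSO. The block gave 28 higher in Combination against JQ1, 51 lower in Combination against CAR and 32 lower in the interaction. What the replicate numbers mark is not in the labels, so whether they pair the libraries is unknown. With the block alone, no count of calls moved by more than 1.5 times.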
